A study of Mus musculus with 24 samples.

Results

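A set of 10 genes of the splenic red pulp macrophage, Spic, Slc40a1, Hmox1, Cd163, Vcam1, Axl, Mertk, Cd5l, Marco, and Timd4, was followed in CD11b+ cells of mouse spleen and bone marrow. They were chosen by name, through the RefSeq transcript of each array probe, and were 10 of the 32451 genes or transcripts on the array. They had 12 probes, 2 each for Hmox1 and Vcam1 and 1 for each of the others, and all 12 probes were well above background on all 22 arrays used. The question asked of them was how their mRNA differed between the tissues, between genotypes, and between control mice and mice after myocardial infarction (MI).

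Red pulp macrophages take up worn-out red blood cells in the spleen, break down the haem and send the iron back to the blood. The transcription factor Spi-C, encoded by Spic, is needed for their development, and haem induces its expression. They carry the surface markers F4/80 and VCAM-1, and little CD11b, an integrin chain (Itgam) that is abundant on monocytes and neutrophils. Other splenic macrophages, those of the marginal zone, carry the scavenger receptor MARCO, so the 10 genes do not all mark 1 cell type.

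RNA came from CD11b+ cells of male WT, HDC-KO, and STAT6-KO mice, all of Balb/C background and 10 weeks old by the methods of the study. HDC-KO mice lack histidine decarboxylase, the enzyme that makes histamine, and STAT6-KO mice lack STAT6, a transcription factor of interleukin-4 and interleukin-13 signalling. Cells were taken from spleen or bone marrow of control mice and of mice 1, 2, and 4 weeks after MI. Each of the 24 conditions had 1 array, made from the cells of 5 pooled mice, so the spread between mice was not measured. How these cells were isolated for the arrays and how pure they were is not given in the sources used here, and whether part of the mRNA of the 10 genes came from carried-over cells was not tested. Too few spots were present on 2 arrays, the spleen control of HDC-KO mice and the bone marrow of STAT6-KO mice 1 week after MI, and these were not used, which left 11 arrays of each tissue and no control for HDC-KO spleen.

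Signals are log2 intensities minus the 75th percentile of the array, so that a level of 0 equals the 75th percentile and a step of 1 is a 2-fold difference. The 75th percentile itself was 928 to 2461 in spleen and 963 to 1780 in bone marrow, and 70.4 to 79.8% of spots were well above background. Itgam was well above background on all 22 arrays. Hdc was at 1.67 to 2.78 on the 7 HDC-KO arrays and at 4.12 to 5.51 on the others. Stat6 had 3 probes. On the probe with the highest signal the genotypes overlapped in spleen. There the array labelled as STAT6-KO spleen at 4 weeks was at 2.12, below the WT spleen range of 2.38 to 2.90. The other STAT6-KO spleen arrays were at 1.94 to 2.44 on this probe. On the second probe the STAT6-KO arrays were at -1.72 to -0.27, except that labelled array at 0.20, inside the WT spleen range of -0.43 to 1.08. On the third probe that array was at 0.73, again inside the WT spleen range (0.05 to 1.29), while the other STAT6-KO arrays were at -1.11 to -0.29. The fits, correlations, and marker sums that use this array are therefore also given without it, as counts, medians, or ranges where single values changed no call.

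RefSeq promoter sequences (build GRCm38.p6) were at hand for 7 of the 10 genes, and the 250 bases before the start of 3 of them are shown because Spic encodes the factor of the lineage, Cd163 was closest to Spic among the 10 over both tissues (Pearson's r 0.91 over 22 arrays after each tissue's mean was removed), and Marco was the only one of the 10 called between genotypes in the fits over all arrays of a tissue. Capitals mark GAGGAA, the core of the site bound by PU.1 and Spi-C, on either strand.
Spic, chr10:88683024-88683273, minus strand: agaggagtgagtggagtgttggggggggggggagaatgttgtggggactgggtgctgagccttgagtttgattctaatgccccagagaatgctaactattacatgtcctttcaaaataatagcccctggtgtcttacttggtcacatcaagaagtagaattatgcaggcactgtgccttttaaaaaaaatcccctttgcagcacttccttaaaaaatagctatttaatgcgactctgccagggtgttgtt
Cd163, chr6:124304401-124304650, plus strand: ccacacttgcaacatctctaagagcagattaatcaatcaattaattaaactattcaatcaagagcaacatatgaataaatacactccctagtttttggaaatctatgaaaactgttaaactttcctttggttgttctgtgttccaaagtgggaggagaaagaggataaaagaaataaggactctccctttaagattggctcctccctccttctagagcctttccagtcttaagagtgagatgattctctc
Marco, chr1:120505025-120505274, minus strand: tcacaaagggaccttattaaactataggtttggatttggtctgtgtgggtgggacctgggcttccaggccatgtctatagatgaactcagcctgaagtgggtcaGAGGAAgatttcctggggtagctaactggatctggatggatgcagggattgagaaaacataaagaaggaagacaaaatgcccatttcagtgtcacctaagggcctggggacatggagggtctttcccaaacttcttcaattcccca
GAGGAA was found in 3 of the 7 windows (Axl, Cd5l, and Marco), and in 23.3% of the 32851 mouse promoters of the same length. TGACNNNGC, the core of the antioxidant response element bound by NRF2 and BACH1, was in 0 of the 7 windows and in 10.2% of all promoters, on either strand. The windows of Spic and Cd163 held neither motif, and motif matches are a description of these letters alone. The start is the one listed with each promoter. By the RefSeq span of the gene, the windows of Cd163, Axl, and Timd4 reach into the gene itself.

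**Figure D1:**
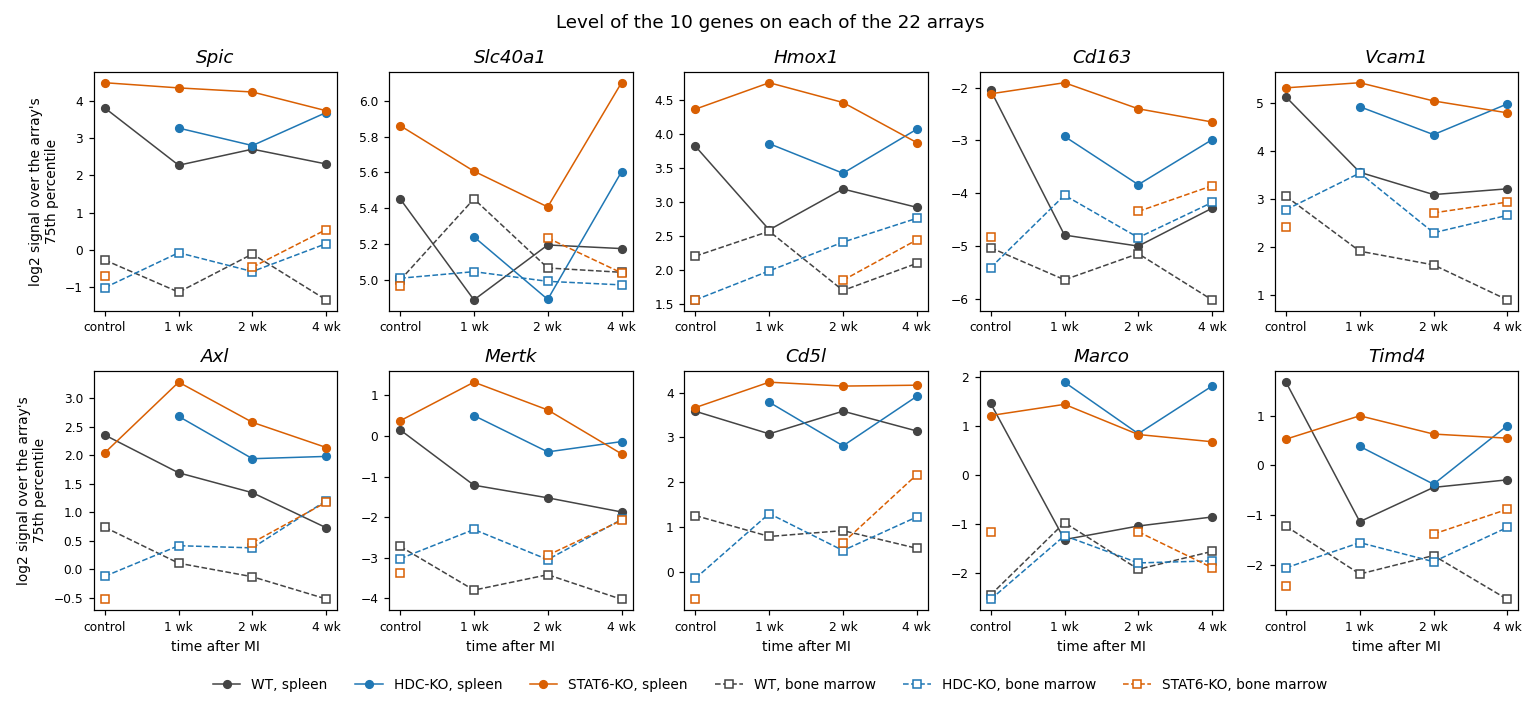
Level of the 10 genes (log2 signal minus the 75th percentile of the array) on each of the 22 arrays, against the time after MI, with 1 panel per gene, each with its own scale, filled circles for spleen, open squares for bone marrow, and 1 colour per genotype. Each point is 1 array of 5 pooled mice, so there are no error bars. The spleen arrays lie above the bone marrow arrays for Spic, Mertk, and Cd5l without overlap.

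CD11b+ cells of the spleen had more mRNA of 9 of the 10 genes than those of the bone marrow. The differences ran from 2.81-fold for Cd163 to 13.2-fold for Spic, and Slc40a1 was the gene that did not pass the test. The 10 pairs of arrays with the same genotype and time were compared by limma with the pair as a block, with p-values adjusted over 27668 genes. All genes tested gave 22.4% higher in spleen (54.4% in either direction), against 9 of 10 here. Without the pair of STAT6-KO at 4 weeks the count was again 9, and Slc40a1 gave 0.22 (limma adjusted p = 0.238). The median difference was 2.00 for the 10 genes and -0.17 for all genes. In these bulk samples fewer cells of a type and less RNA per cell cannot be told apart.

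Spic was at 2.27 to 4.48 (median 3.68) on the 11 spleen arrays and at -1.33 to 0.55 (median -0.46) on the 11 bone marrow arrays. The tissues did not overlap, and the difference was 3.72 (SE 0.21, limma adjusted p = 1.4e-07), between 2.81 and 5.19 in each pair. It was the largest difference of the 10.

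Slc40a1, which encodes ferroportin, the only known iron exporter of mammalian cells, was at 4.89 to 6.10 (median 5.41) in spleen and at 4.96 to 5.45 (median 5.04) in bone marrow. Its levels overlapped between tissues, with a difference of 0.30 (SE 0.15, limma adjusted p = 0.114) and a higher value in spleen in 8 of 10 pairs. Hmox1, which encodes haem oxygenase-1, the enzyme that opens the haem ring and frees its iron, was at 2.59 to 4.75 (median 3.86) in spleen and at 1.56 to 2.76 (median 2.10) in bone marrow. The ranges touched in a narrow band, and Hmox1 was higher in spleen in all 10 pairs, by 1.50 (SE 0.24, limma adjusted p = 2.2e-04). In the pairs this difference ran from 0.02 (WT 1 week) to 2.80.

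Cd163, the receptor for haemoglobin bound to haptoglobin, was at -5.00 to -1.91 (median -2.92) in spleen and at -6.02 to -3.86 (median -4.84) in bone marrow. Its spleen values overlapped those of the bone marrow through the WT arrays after MI, and the difference was 1.49 (SE 0.25, limma adjusted p = 3.5e-04). Before scaling, its signals were low, 51.1 to 467 in spleen and 14.8 to 121 in bone marrow. Under other settings the difference of Cd163 was 0.79 to 1.64. Vcam1, an adhesion molecule for integrin alpha4 beta1 and a surface marker of these macrophages, was at 3.09 to 5.43 (median 4.93) in spleen and at 0.89 to 3.54 (median 2.66) in bone marrow. It was higher in spleen in all 10 pairs, by 2.04 (SE 0.15, limma adjusted p = 6.4e-07).

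The 3 receptors for phosphatidylserine on dying cells were each higher in spleen. Axl and Mertk, receptor tyrosine kinases that bind it through GAS6 (Mertk also through protein S), differed by 1.62 (SE 0.17, limma adjusted p = 1.1e-05) and 2.58 (SE 0.21, limma adjusted p = 1.3e-06). Timd4, which encodes TIM-4 and binds it directly, differed by 1.97 (SE 0.19, limma adjusted p = 5.6e-06). Axl was at 0.73 to 3.29 in spleen and -0.53 to 1.20 in bone marrow, Mertk at -1.87 to 1.33 and -4.02 to -2.06, and Timd4 at -1.13 to 1.68 and -2.70 to -0.89. Of these only Mertk was without overlap.

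Marco, a scavenger receptor for bacteria and modified lipoproteins, was at -1.32 to 1.90 (median 0.85) in spleen and at -2.54 to -0.97 (median -1.75) in bone marrow. The difference was 2.14 (SE 0.38, limma adjusted p = 5.3e-04), the least even of the 10, from 3.91 in WT control to -0.35 in WT MI 1 week, the 1 pair in which bone marrow was higher. Cd5l, a secreted scavenger protein also called AIM, was at 2.81 to 4.23 (median 3.67) in spleen and at -0.62 to 2.17 (median 0.78) in bone marrow, with no overlap and a difference of 2.72 (SE 0.20, limma adjusted p = 7.2e-07). Spic, Mertk, and Cd5l were thus the 3 genes without overlap between 11 and 11 arrays, a pattern found in 5.88% of genes.

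The second probes of Hmox1 and Vcam1 followed the probes used across the 22 arrays, with Pearson's r of 0.92 and 0.97, given as a description because tissue is shared by these points. Markers of other cells also differed between the tissues. The summed level of 6 macrophage markers was 82.0 to 153 times the 75th percentile in spleen and 37.0 to 57.6 times in bone marrow, and all 6 were higher in spleen in the same test. For 8 neutrophil markers the sum was 193 to 357 in spleen and 372 to 682 in bone marrow, for Itgam and Itgb2, the chains of the CD11b integrin, 18.9 to 42.7 and 52.2 to 81.6, and for 6 B cell markers 20.4 to 82.7 and 1.86 to 27.3. The part of these markers in the tissue differences was not tested.

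**Figure D2:**
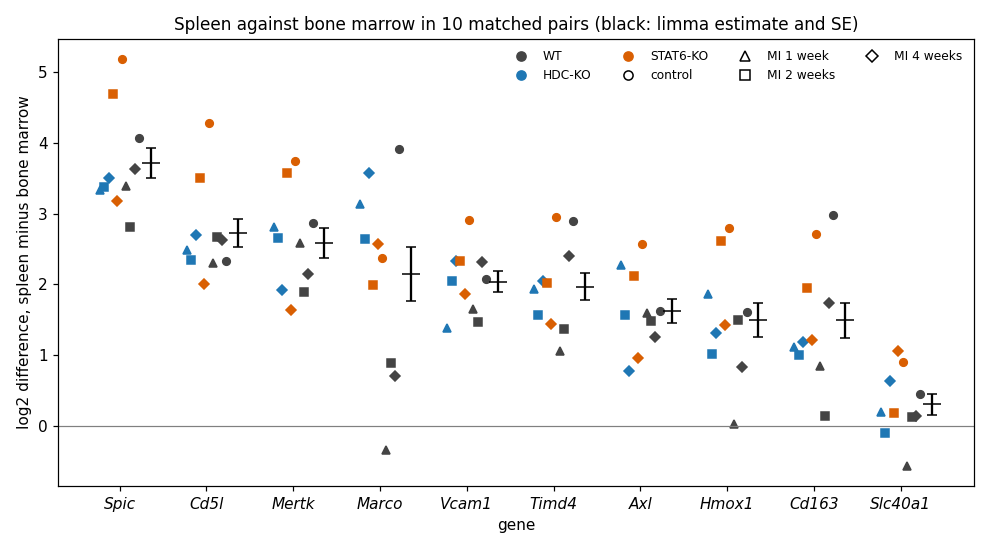
Difference between spleen and bone marrow (log2) for each of the 10 genes in the 10 pairs of arrays of the same genotype and time, with the limma estimate and its SE in black. Colours are genotypes and point shapes are times, and all pairs lie above 0 except 1 pair for Marco (-0.35) and 2 pairs for Slc40a1, whose estimate is 0.30.

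In WT spleen most of the 10 genes were lower after MI than in the control. At 1, 2, and 4 weeks, 7 of the 10 were past 2-fold lower at each time, where 10.7%, 8.96%, and 2.2% of all genes were, and 6 of them (Spic, Cd163, Vcam1, Mertk, Marco, and Timd4) were so at every time. These are comparisons of 1 array with 1 array and share the same control. Taking the 3 arrays after MI together against the 1 control, by limma over the 11 spleen arrays, 0 of the 10 passed, where 0.00378% of all genes did, and 6 were at an unadjusted p under 0.05, where 6.55% of all genes were. In STAT6-KO spleen the same comparison gave 0 of 10 (0% of all genes), with 0 at an unadjusted p under 0.05 (2.91% of all genes). The median change was -1.53 in WT and -0.08 in STAT6-KO, and the difference between these changes passed for 0 genes of all and 0 of the 10, with 5 of them at an unadjusted p under 0.05 (4.48% of all genes). Without the array labelled as STAT6-KO spleen at 4 weeks the 3 counts of genes that passed stayed 0, and the median change in STAT6-KO turned to 0.10. The arrays after MI stood for replicates here, a comparison added after the data were seen.

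STAT6-KO spleen had higher values than WT spleen for all 10 genes, but none passed in the fit over the 11 spleen arrays with time as a term. limma called 0 of 10 (0.676% of all genes were called higher), with 9 at an unadjusted p under 0.05 (22.9% of all genes), while the methods' t-test called 5 of the 10 (2.99% of all genes) and 0 after adjustment (0.0793%). The median difference was 1.32, against -0.06 for all genes. The control arrays carried little of it, with 0 of the 10 past 2-fold higher (4.28% of all genes) and 1 past 2-fold lower, Timd4 (3.94% of all genes). After MI 9 of the 10 were past 2-fold higher at 1 week, 8 at 2 weeks, and 7 at 4 weeks, where 4.99%, 3.22%, and 5% of all genes were.

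Without the control time point, which held 1 WT and 1 STAT6-KO array, 7 of the 10 were higher in STAT6-KO spleen after MI and passed the test, against 1.54% of all genes. They were Cd163 (2.37, SE 0.27, limma adjusted p = 0.0137), Marco (2.06, SE 0.30, limma adjusted p = 0.0256), Mertk (2.04, SE 0.28, limma adjusted p = 0.0215), Vcam1 (1.80, SE 0.19, limma adjusted p = 0.0124), Spic (1.68, SE 0.29, limma adjusted p = 0.0333), Hmox1 (1.46, SE 0.30, limma adjusted p = 0.0497), and Axl (1.41, SE 0.17, limma adjusted p = 0.017). Timd4, Cd5l, and Slc40a1 gave 1.35, 0.91, and 0.62 with limma adjusted p of 0.0718, 0.136, and 0.114. Leaving out any other time point gave 0 of 10, so the count turned on the pair of control arrays. Without the array labelled as STAT6-KO spleen at 4 weeks the count stayed 0 with the controls in the fit (median 1.41, 0.276% of all genes called higher). It stayed at the same 7 genes without the controls (median of the 10 genes 1.86, 1.68% of all genes). These 7 then gave 2.71 for Cd163, 2.40 for Mertk, 2.34 for Marco, 1.99 for Vcam1, 1.94 for Spic, 1.78 for Hmox1, and 1.49 for Axl, with limma adjusted p of 0.0113 to 0.034. With the controls in the fit the differences of the 10 genes without that array ran from 0.49 for Slc40a1 to 1.84 for Cd163.

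The values on each array show the pattern. Spic was at 3.80 in the WT spleen control and at 2.27, 2.70, and 2.30 in WT spleen 1, 2, and 4 weeks after MI, and in STAT6-KO spleen at 4.48 in the control and at 4.34, 4.23, and 3.73 after MI. The WT arrays after MI were the lowest, while the WT control at 3.80 was above the array labelled as STAT6-KO at 4 weeks (3.73). Over all times the difference between the genotypes was 1.43 (SE 0.28, limma adjusted p = 0.0505).

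Slc40a1 was at 5.45, 4.89, 5.20, and 5.17 in WT spleen, in the order control, 1, 2, and 4 weeks, and at 5.86, 5.61, 5.41, and 6.10 in STAT6-KO spleen. Its differences were small beside those of the other genes, at 0.57 over all times (SE 0.16, limma adjusted p = 0.0972). Hmox1 was at 3.82, 2.59, 3.19, and 2.92 in WT spleen and at 4.36, 4.75, 4.46, and 3.87 in STAT6-KO spleen. For Hmox1 the difference was 1.23 (SE 0.28, limma adjusted p = 0.0653). Its lowest STAT6-KO value, 3.87 on the array labelled as 4 weeks, was just above the WT control at 3.82.

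Cd163 was at -2.05 in the WT spleen control and at -4.79, -5.00, and -4.28 after MI, and stayed between -2.65 and -1.91 on the 4 STAT6-KO spleen arrays. The WT arrays after MI were inside the bone marrow range (-6.02 to -3.86), while the WT control was inside the STAT6-KO range. Before scaling, the Cd163 signals on these WT arrays after MI were low, 51.1 to 82.4. Vcam1 had the same order, at 5.13 in the WT control, at 3.56, 3.09, and 3.21 after MI, and at 5.32, 5.43, 5.05, and 4.80 in STAT6-KO spleen. Over all times the differences were 1.76 for Cd163 (SE 0.43, limma adjusted p = 0.0744) and 1.40 for Vcam1 (SE 0.29, limma adjusted p = 0.0559).

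Of the receptors for dying cells, Mertk was at 0.15, -1.21, -1.52, and -1.87 in WT spleen and at 0.37, 1.33, 0.64, and -0.44 in STAT6-KO spleen. Axl was at 2.36, 1.69, 1.34, and 0.73 in WT and at 2.05, 3.29, 2.58, and 2.14 in STAT6-KO spleen. Both were lower after MI than in the control in WT, and Axl was above its control in STAT6-KO at all 3 times. Timd4 was at 1.68, -1.13, -0.44, and -0.29 in WT and at 0.53, 1.00, 0.63, and 0.55 in STAT6-KO, so that its highest spleen value was that of the WT control. Differences over all times were 1.59 for Mertk (SE 0.36, limma adjusted p = 0.0639), 0.98 for Axl (SE 0.30, limma adjusted p = 0.115), and 0.72 for Timd4 (SE 0.47, limma adjusted p = 0.391).

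Marco was at 1.46 in the WT spleen control and at -1.32, -1.04, and -0.86 after MI, and at 1.22, 1.45, 0.83, and 0.68 in STAT6-KO spleen. The WT arrays after MI stood apart from all the other spleen arrays, and the difference over all times was 1.48 (SE 0.43, limma adjusted p = 0.104). Cd5l was at 3.58, 3.08, 3.59, and 3.14 in WT and at 3.67, 4.23, 4.15, and 4.17 in STAT6-KO spleen. Unlike the other scavenger genes it was close to its control at all times in WT, with a genotype difference of 0.71 (SE 0.28, limma adjusted p = 0.186).

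**Figure D3:**
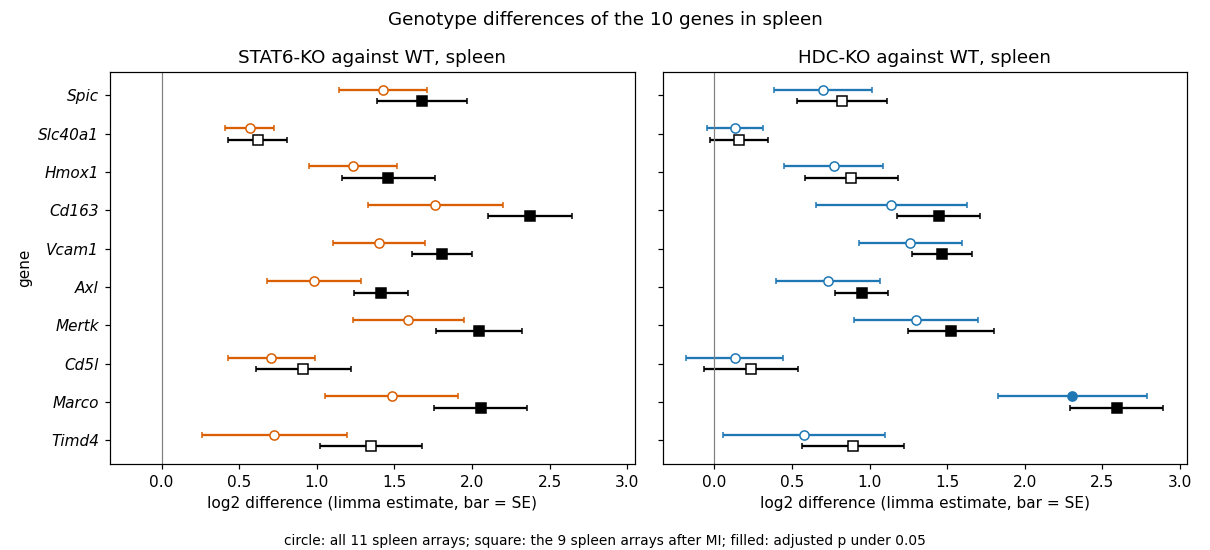
Difference of STAT6-KO (left) and of HDC-KO (right) spleen from WT spleen (log2) for each gene, as the limma estimate with its SE, with circles for the fit over all 11 spleen arrays, squares for the 9 arrays after MI alone, and filled symbols for an adjusted p under 0.05. In STAT6-KO spleen 0 circles and 7 squares are filled, and in HDC-KO spleen 1 circle, Marco, and 5 squares.

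HDC-KO spleen, which was measured after MI alone, also had higher values than WT spleen. In the fit over the 11 spleen arrays limma called 1 of 10, Marco, with a difference of 2.31 (SE 0.48, limma adjusted p = 0.0493), where 2.07% of all genes were called higher. Marco was at 1.90, 0.85, and 1.82 in HDC-KO spleen 1, 2, and 4 weeks after MI, all above the WT arrays after MI, but its call was lost under 13 of 18 other settings (differences 1.96 to 2.59, limma adjusted p from 0.0109 to 0.804). It was also lost without the array labelled as STAT6-KO spleen at 4 weeks (2.30, limma adjusted p = 0.0626), where 2.22% of all genes were called higher. The other differences were 1.30 for Mertk, 1.26 for Vcam1, 1.14 for Cd163, 0.77 for Hmox1, 0.73 for Axl, 0.70 for Spic, 0.58 for Timd4, and 0.13 for both Slc40a1 and Cd5l.

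On the arrays after MI alone 5 of the 10 were higher in HDC-KO spleen and passed, against 3.2% of all genes, and the same 5 passed without the array labelled as STAT6-KO spleen at 4 weeks (4.13% of all genes). These were Marco (2.59, SE 0.30, limma adjusted p = 0.0139), Mertk (1.53, SE 0.28, limma adjusted p = 0.035), Vcam1 (1.46, SE 0.19, limma adjusted p = 0.0179), Cd163 (1.44, SE 0.27, limma adjusted p = 0.0367), and Axl (0.95, SE 0.17, limma adjusted p = 0.0355). Array by array, 6, 4, and 8 of the 10 were past 2-fold higher than in WT at 1, 2, and 4 weeks, where 3.82%, 4.42%, and 6.25% of all genes were, so the array of 2 weeks had the fewest. Vcam1 was at 4.93, 4.34, and 4.98 and Mertk at 0.50, -0.39, and -0.14 in HDC-KO spleen. The 3 HDC-KO arrays were above the 3 WT arrays after MI, with no overlap, for 7 genes (Spic, Hmox1, Cd163, Vcam1, Axl, Mertk, and Marco), a pattern found in 9.64% of all genes. Both knockouts were compared with the same WT arrays, so the comparisons share their controls. Slides were inferred from the scan date, and each held 1 genotype and tissue, so slide or scan date and genotype cannot be told apart. On each slide the control was at position 1 and the arrays of 1, 2, and 4 weeks at positions 2, 3, and 4. Time after MI and position on the slide thus cannot be told apart either.

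Macrophage markers moved in the same arrays. Their summed level (6 genes) was 126 in the WT spleen control, 82.0 to 89.8 in WT spleen after MI, 82.2 to 148 in HDC-KO spleen after MI, 135 in the STAT6-KO control, and 113 to 153 in STAT6-KO after MI. The sum of the 8 neutrophil markers was 256, 314 to 357, 193 to 344, 318, and 214 to 293 in the same order, and that of Itgam and Itgb2 was 24.4, 30.3 to 42.7, 19.2 to 33.8, 25.6, and 18.9 to 30.2. For the 10 genes themselves the sum was 131, 65.2 to 76.9, 81.9 to 135, 163, and 145 to 175. These sums add linear levels, so genes with high signal weigh most, and Slc40a1 had the highest level of the 10 on each spleen array. The macrophage sums of WT spleen after MI were thus below those of STAT6-KO spleen after MI, while the lowest of HDC-KO (82.2) was inside the WT range. Csf1r had the highest level of the 6 macrophage markers on the spleen arrays (log2 level 5.28 to 6.35). It is also on the monocyte list, so the sums of these lists are not separate. Without the array labelled as STAT6-KO spleen at 4 weeks the STAT6-KO sums after MI were 113 and 133 for macrophage markers, 214 and 255 for neutrophil markers, 26.3 and 30.2 for Itgam and Itgb2, and 145 and 175 for the 10 genes. All markers of these lists were well above background on every spleen array, and their part in the genotype differences was not tested.

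**Figure D4:**
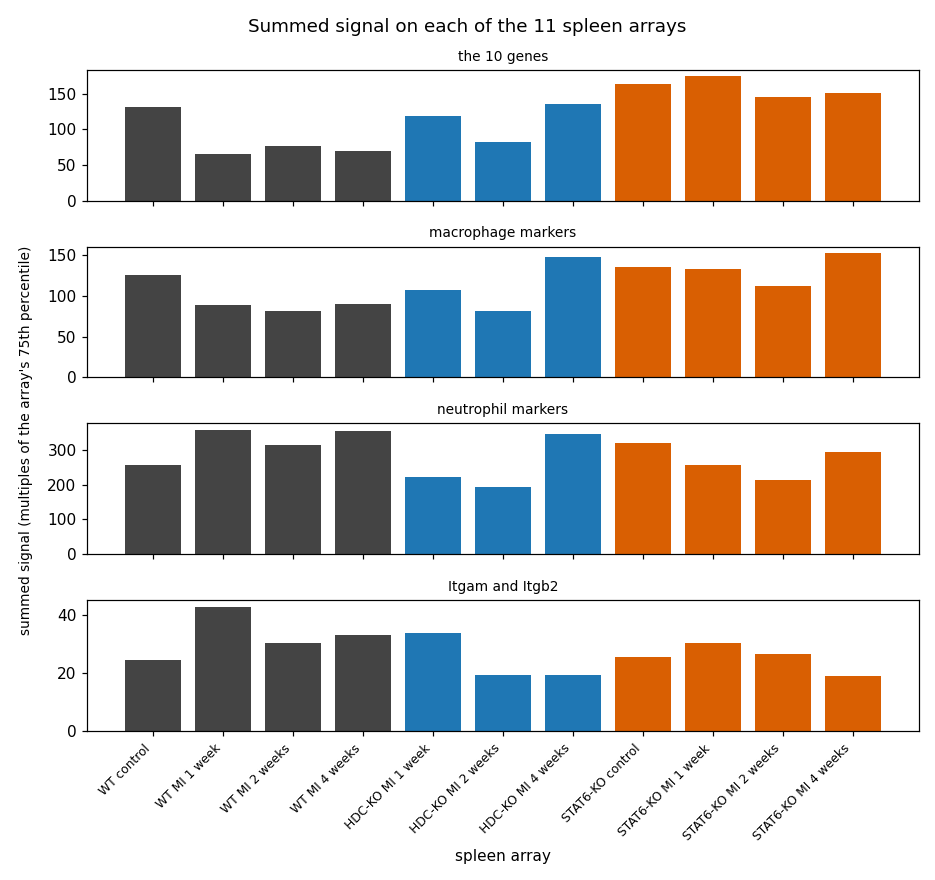
Summed level of the 10 genes and of marker lists of macrophages, neutrophils, and the CD11b gate on each spleen array, in multiples of the 75th percentile of the array. Each bar is 1 array of 5 pooled mice, coloured by genotype, so there are no error bars. The sum of the 10 genes is 65.2 to 76.9 in WT spleen after MI and 145 to 175 in STAT6-KO spleen after MI. It adds linear levels, so genes with high signal, Slc40a1 most of all, weigh most.

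Bone marrow showed no genotype difference that passed for the 10 genes. limma called 0 of 10 in STAT6-KO against WT, where 4.62% of all genes were called (3.99% higher), with 1 at an unadjusted p under 0.05 (22.4% of all genes) and 1 by the methods' t-test (4.11%). The value nearest to the threshold was that of Cd163, 1.18 (SE 0.42, limma adjusted p = 0.159). Under other settings it was 0.35 to 1.57. HDC-KO against WT gave 0 of 10, where 0.443% of all genes were called, with 0 at an unadjusted p under 0.05 (21.2% of all genes) and 0 by the methods' t-test (3.68%). The median differences were 0.45 and 0.31.

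At 4 weeks after MI the change of bone marrow from its own control differed by genotype. Against its own control, WT bone marrow had 5 genes past 2-fold lower (Spic, Vcam1, Axl, Mertk, and Timd4), where 2.78% of all genes were. HDC-KO bone marrow had 5 past 2-fold higher (Spic, Hmox1, Cd163, Axl, and Cd5l), where 5.58% were, and STAT6-KO bone marrow had 5 past 2-fold higher (Spic, Axl, Mertk, Cd5l, and Timd4), where 5.28% were. Vcam1 was at 3.05 in the WT bone marrow control and at 1.91, 1.62, and 0.89 at 1, 2, and 4 weeks, the only gene past 2-fold lower at every time there. Cd5l was at -0.62 in the STAT6-KO bone marrow control and at 0.64 and 2.17 at 2 and 4 weeks. Each of these is 1 array against 1 array, with no replicate check. The controls differed as well. For the genes named here, except Cd163, the WT bone marrow control was above both knockout controls. Cd5l was at 1.25 in the WT control and at -0.15 in that of HDC-KO, and Axl at 0.73 in WT, -0.13 in HDC-KO, and -0.53 in STAT6-KO.

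Across genotypes, with genotype as a term, 0 of the 10 passed at any time after MI in either tissue by limma. In spleen, 0, 4, and 3 had an unadjusted p under 0.05 at 1, 2, and 4 weeks, where 27.4%, 23.7%, and 8.7% of all genes had, the median changes were -0.59, -0.87, and -0.86, and 7.9%, 2.25%, and 0% of all genes were called. Without the array labelled as STAT6-KO spleen at 4 weeks 0 passed again, with medians of -0.57, -0.85, and -0.75. The methods' t-test called 0 of 10 at each of these times in both tissues, where it called 4.21%, 1.93%, and 0.759% of all genes in spleen and 2.01%, 0.472%, and 1.32% in bone marrow. In bone marrow 1, 0, and 0 had an unadjusted p under 0.05, where 19.7%, 7.48%, and 19.1% of all genes had, the medians were 0.28, 0.21, and 0.36, and 0.148%, 0%, and 0% of all genes were called. The unadjusted call was Marco at 1 week, with 1.14 (SE 0.35, limma adjusted p = 0.166).

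Without the STAT6-KO arrays the only spleen control was the WT array, and HDC-KO spleen had none, so the spread between controls was not measured. That fit gave changes 1 week after MI of -2.53 for Cd163, -2.50 for Timd4, -2.47 for Marco, -1.62 for Vcam1, and -1.45 for Spic. For Mertk, Hmox1, Axl, Slc40a1, and Cd5l they were -1.27, -1.04, -0.64, -0.47, and -0.27. All of them rest on that 1 control array. On the HDC-KO array of 1 week Hmox1, Axl, Mertk, Cd5l, and Marco were above the WT control. Spic, Slc40a1, Cd163, Vcam1, and Timd4 were below it.

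The tissue difference itself was compared between genotypes within the 10 pairs. limma called 0 of 10 in STAT6-KO against WT (0.347% of all genes), with 1 at an unadjusted p under 0.05 (13.7% of all genes), Hmox1, at 1.29 (limma adjusted p = 0.254). Without the pair of STAT6-KO at 4 weeks it called 0 again, where 0 of 27636 genes were called higher and 2 lower. In HDC-KO against WT it called 0 of 10 (0.99% of all genes), with 1 at an unadjusted p under 0.05 (14.9% of all genes), Marco, at 1.83 (limma adjusted p = 0.331). The spleen over bone marrow difference of Marco was 2.64 to 3.57 in 3 HDC-KO pairs, 1.99 to 2.57 in 3 STAT6-KO pairs, and -0.35 to 3.91 in 4 WT pairs.

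Within the spleen the levels of the 10 genes were positively correlated from array to array. Pairs of all genes were not compared, so these counts have no background beside them. Pearson's r over 11 arrays, given as a description because arrays share genotype and time, was 0.35 to 0.96 over the 45 pairs of genes (median 0.78), with 42 pairs over 0.5. Over the 10 arrays without the one labelled as STAT6-KO spleen at 4 weeks it was 0.41 to 0.96 (median 0.80). The closest were Spic with Hmox1 and Cd163 with Vcam1 (both 0.96) and Axl with Mertk (0.95), and the least alike were Slc40a1 and Axl (0.35). In bone marrow r ran from -0.40 to 0.92 (median 0.52), with 23 pairs over 0.5 and 12 below 0. Slc40a1 and Marco were the genes apart there, with median r of -0.11 and -0.16 to the other members.

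**Figure D5:**
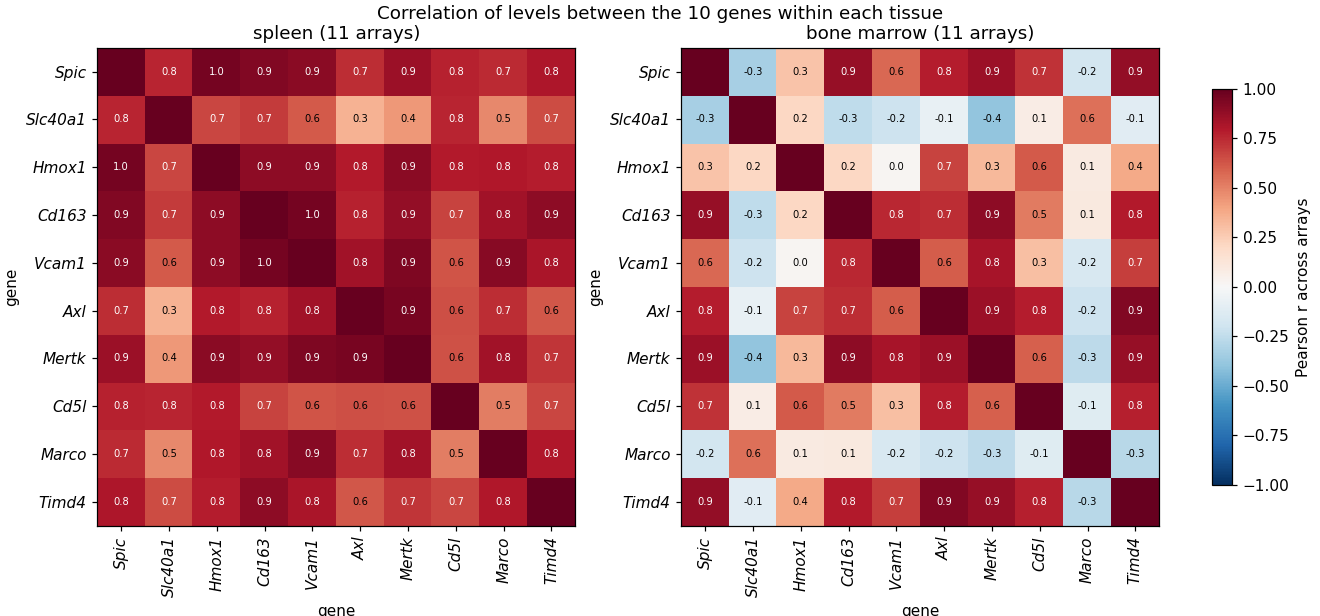
Pearson's r between the levels of each 2 of the 10 genes over the 11 spleen arrays (left) and the 11 bone marrow arrays (right), with red for positive and blue for negative values. In spleen all 45 values are above 0, and in bone marrow those of Slc40a1 and Marco with most others are near or below 0.

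The genes most like each member were sought among 16652 genes with a symbol, by Pearson's r over the 22 arrays after each tissue's mean was removed. Spic was most like Slc15a2 (0.94), Gpd1 (0.92), and Cmbl (0.90), and Cd163 was at 0.91 with Spic, so that 2 genes were as high. Cd163 was most like Slc39a12, Mrc1, and Tenm4 (each 0.93), Vcam1 like Slco2b1 (0.95), Mrc1 (0.93), and Tenm4 (0.91), and Mertk like Tenm4 (0.96), Slco2b1, and Eva1a (both 0.95). Tenm4 was thus among the 3 nearest of 3 members, and Mrc1, the mannose receptor, of 2. Axl was most like Ttyh2 (0.93), the complement gene C1qc (0.90), and Hyal1 (0.89), Timd4 like Cadm1 (0.89), Rgl3, and Epb41l3 (both 0.88), and Hmox1 like Mcf2, Abcc3, and Lima1 (each 0.87). The nearest genes of Marco (Mpzl1, 0.83), Slc40a1 (Meg3, 0.82), and Cd5l (Ccdc148, 0.82) were less close. Without the array labelled as STAT6-KO spleen at 4 weeks r of Slc40a1 with Meg3 was 0.73, and that of Cd163 with Spic stayed at 0.91.

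Other genes of the same processes were read from 3 lists, beside 22.4% of all genes higher and 32.1% lower in spleen than in bone marrow, with a median of -0.17. Of 13 other spleen macrophage genes 12 were higher in spleen than in bone marrow and 0 lower (median 2.03), among them Itgad (3.61), which encodes the alpha D integrin chain, C6 (3.14), Nr1h3, the gene of liver X receptor alpha, Fcna (2.49), and Maf (2.06). Of 20 scavenger and efferocytosis genes 16 were higher and 1 lower, Stab1 (-1.88), with a median of 1.22, and the largest differences were those of Stab2 (2.68), Mrc1 (2.22), Tyro3 (1.94), Itgb5 (1.86), and C1qc (1.79). Without the pair of STAT6-KO at 4 weeks the counts were 13 higher and 0 lower, and 14 higher and 2 lower.

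Of 23 iron and haem handling genes 5 were higher and 8 lower in spleen, shares near those of all genes, and 10 did not pass, with a median of -0.28. The counts were the same without the pair of STAT6-KO at 4 weeks. The largest differences were those of Nqo1 (-1.39), Blvra (1.38), Lrp1 (1.36), Heph (-1.16), Ncoa4 (-1.15), and Slc11a2 (1.12). Blvra encodes a biliverdin reductase, which acts after haem oxygenase, Nqo1 is, with Hmox1, a target of the oxidative stress factor NRF2, and Ncoa4 encodes the receptor that brings ferritin to the lysosome.

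Between genotypes few of these genes passed in spleen. In STAT6-KO spleen 1 of 23 iron and haem handling genes was higher (0.676% of all genes), Aco1, an iron-responsive RNA-binding protein and aconitase, by 0.99 (limma adjusted p = 0.0123, and 0.0427 without the array labelled as STAT6-KO spleen at 4 weeks). Of 20 scavenger and efferocytosis genes 1 was lower (1.28% of all genes), the scavenger receptor Scarf1, at -2.20 (limma adjusted p = 0.0369), and this call was lost without that array (-2.30, limma adjusted p = 0.0653). The 13 other spleen macrophage genes gave 0 calls with a median of 0.91 (1.05 without that array). In HDC-KO spleen 1 of the 20 scavenger and efferocytosis genes was higher (2.07% of all genes), Tyro3, the relative of Axl and Mertk, by 1.09 (limma adjusted p = 0.0326, and 0.0334 without that array), and the other spleen macrophage genes again gave 0 calls, with a median of 0.71 (0.70 without that array).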

How the data were processed

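RNA of CD11b+ cells was measured on one-colour Agilent mouse arrays (Cy3). The deposited values are spot intensities that the authors read with Agilent Feature Extraction, linear, background-subtracted, and not scaled between arrays. The Genespring output named in the methods of the study was not used here. Of 24 arrays 22 were complete. Each condition had 1 array of 5 pooled mice, so p-values measure only the spread between these arrays, with genotype and time standing in for replicates, and the number of arrays limits the precision.

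From each log2 signal the 75th percentile of the non-control spots of its array was subtracted. The 3055 outlier spots were left out, and 0 spots were saturated. Spots of a probe were averaged. Through RefSeq, 27234 of 39429 probes were named (20659 genes), and the probe with the highest mean stood for a gene. A probe entered a fit when it was well above background on at least 2 of its arrays. Tests used limma 3.58.1 in R 4.3.3 (with the package data.table, version 1.17.8) with Benjamini-Hochberg adjusted p under 0.05 over all genes. The code was tried on these same arrays after the fitted differences were taken out and known shifts were added. That trial fixes the other genes in advance, so it cannot measure the rate of false calls. Tissues were compared over 10 pairs of the same genotype and time as blocks, which come from different pools of cells. Genotypes and times were compared in additive fits within a tissue. Single arrays were set side by side at 2-fold. Plots used matplotlib 3.10.9 in Python 3.11.15.

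The members and gene lists were chosen with earlier results of these data known. The 10 members were named in every comparison, and per comparison at most 6 genes of a list that passed, those with the largest differences. The result of 1 gene chosen in this way is not reported here. Alternatives were normexp (offset 50, on the median spot signal), quantile and median scaling, the 75th percentile of probes well above background, a floor, other filters and probes, the methods' t-test (p under 0.05 and over 2-fold), no replicate block, slide as a random block, fewer groups, and each pair, time, or genotype left out. Marker lists of monocytes, neutrophils, B cells, T cells, erythroid cells, megakaryocytes, endothelium and stroma, macrophages, and the CD11b gate were summed per array.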

Additional observations from a re-analysis of the deposited data

Results flagged for a closer look

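In spleen, Axl and Timd4 went opposite ways after MI in the 2 genotypes. All 3 WT arrays after MI were below the WT control and all 3 STAT6-KO arrays after MI were above the STAT6-KO control. The change after MI was higher in STAT6-KO than in WT by 1.72 for Axl (limma adjusted p = 1) and by 2.50 for Timd4 (limma adjusted p = 0.641), so neither difference passed the test (1.99 and 2.59 without the array labelled as STAT6-KO spleen at 4 weeks, limma adjusted p = 0.719 and 0.521), which took the arrays after MI as replicates. For Timd4 the values above the STAT6-KO control were small, 0.02 to 0.47, beside -2.81 to -1.97 in WT.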

How the results depend on the processing

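The count of 9 of 10 genes in spleen against bone marrow was 9 or 10 under every alternative run, including no replicate block (9) and slide as a random block (9). No slide held both tissues, so the slide block cannot separate slide from tissue. Slc40a1 passed with quantile normalization or without the pair of WT MI 1 week. The count of 0 in STAT6-KO against WT spleen was 1 with scaling to the median, 2 with the floor, 2 with the filter on every array, 1 with the mean over probes, 5 with the methods' t-test, and 0 to 7 with 1 time point left out (7 without the control, also when the array labelled as STAT6-KO spleen at 4 weeks was left out with it). In bone marrow STAT6-KO gave 1 with the methods' t-test. The count of 1 in HDC-KO spleen was 0 with normexp, quantile normalization, scaling to the median, the floor, no filter, the filter on every array, the methods' t-test before and after adjustment, no replicate block, and without the array labelled as STAT6-KO spleen at 4 weeks, 5 with the 2 genotypes alone, and 0 to 5 with 1 time point left out (5 without the control and 0 without any other). MI 1 week against control gave 0 to 1 in bone marrow with 1 genotype left out, the 1 (Marco) without STAT6-KO. In spleen the count of 0 also moved without STAT6-KO, in a fit with 1 control array. The tissue difference of HDC-KO against WT gave 0 to 1 with 1 pair left out, the 1 being Marco (2.70) without WT control.

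Signs turned in 14 values, none of which passed a test. Against WT spleen, HDC-KO spleen gave Cd5l at -0.0330 and Slc40a1 at -0.0317 with scaling to the median, and Cd5l at -0.16 to 0.57 with 1 time point left out (-0.12 without 1 week and -0.16 without 4 weeks). The tissue difference of Timd4 in STAT6-KO against WT was -0.21 to 0.55 with 1 pair left out (-0.21 without the STAT6-KO control and -0.09 without WT 1 week). The change after MI in STAT6-KO spleen, added after the data were seen, was 0.049 for Cd163 with normexp, 0.16 for Hmox1, 0.074 for Slc40a1, and 0.087 for Vcam1 with quantile normalization, 0.13 for Hmox1 with scaling to the median, -0.20 to 0.24 for Hmox1 (0.24 without 4 weeks, the labelled array) and -0.27 to 0.61 for Mertk (-0.27 without 1 week) with 1 time point left out. The cause was not tested.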

Other observations

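Other marker lists also differed between spleen arrays. The summed level of 8 endothelial and stromal markers was 11.2 times the 75th percentile in the WT spleen control, 3.55 to 5.53 in WT spleen after MI, 5.18 to 10.6 in HDC-KO spleen after MI, 7.90 in the STAT6-KO control, and 7.93 to 11.4 in STAT6-KO spleen after MI. The sum of 4 monocyte markers was 103, 67.9 to 90.2, 69.2 to 101, 107, and 78.2 to 110 in the same order, and that of 6 B cell markers was 23.6, 20.4 to 69.3, 20.8 to 72.6, 47.5, and 32.7 to 82.7. On the STAT6-KO spleen arrays after MI other than the one labelled as 4 weeks these 3 sums were 7.93 and 11.4, 78.2 and 83.0, and 32.7 and 69.9. The sums add linear levels, so genes with high signal weigh most. Among the endothelial and stromal markers Stab2, also on the scavenger and efferocytosis list, had the highest range in spleen (log2 level 0.87 to 3.34). Kdr was at -1.39 to 1.54 there, and the others of that list were at -0.77 or below. Sums for T cells (5 genes), erythroid cells (7 genes), and megakaryocytes and platelets (4 genes) were 6.17 to 19.2, 3.33 to 17.9, and 2.20 to 7.47 on the spleen arrays. In bone marrow they were 13.2 to 23.6, 3.13 to 14.9, and 8.26 to 37.7.

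The 13 other spleen macrophage genes had a median change after MI of -1.13 in WT spleen and 0.27 in STAT6-KO spleen (0.23 without the array labelled as STAT6-KO spleen at 4 weeks), with 0 genes called by limma in either. In STAT6-KO bone marrow 2 of 23 iron and haem handling genes were higher than in WT, where 3.99% of all genes were. They were Slc48a1, which encodes the haem transporter HRG1, by 1.46 (limma adjusted p = 0.0158), and Pcbp1, which encodes an iron chaperone, by 0.84 (limma adjusted p = 0.0175).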
